A study of Homo sapiens with 12 samples.

Results

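The set comprised 9 genes of the human 17-beta-hydroxysteroid dehydrogenase (HSD17B) family, HSD17B1, HSD17B2, HSD17B4, HSD17B6, HSD17B8, HSD17B10, HSD17B11, HSD17B12 and HSD17B14, chosen by symbol from the members that act outside cholesterol synthesis. HSD17B3 and HSD17B13 were not part of the set and are described apart. All 9 were found among the 58735 genes of the count table. They were followed in 2 endometrial cell lines, HEC-1A (HEC1A in the labels), a cancer line of epithelial origin, and T-HESC (THESC in the labels), a stromal line of fibroblastic origin that was immortalised with telomerase. Each line was exposed during 32 h either to AG-205 at 15 µM or to its vehicle DMSO. AG-205 is a small molecule that has been used as an inhibitor of the progesterone receptor membrane component PGRMC1. The study concluded that it lacks specificity for PGRMC1. There, the sterol genes HSD17B7, MSMO1 and INSIG1 still rose with AG-205 after PGRMC1 was silenced. There were 3 libraries in each of the 4 groups, 12 in all, from 3 independent culture experiments. Each cell type was represented by 1 line, and the difference between cell types cannot be told apart from the difference between those lines. The unit of level is CPM (a gene's counts relative to its library's TMM-scaled total), and spreads are the SD over 3 libraries. Effects are given as the log2 fold change of AG-205 over DMSO with its standard error (SE). A gene was called where edgeR's quasi-likelihood test gave an adjusted p under 0.05 together with an absolute log2 fold change over 1.

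The HSD17B enzymes take their name from the oxidation or reduction of steroids at carbon 17, through which tissues such as the endometrium set the local balance of strong and weak estrogens and androgens. HSD17B1 is the classical reductase of estrone to estradiol, and HSD17B2 the oxidase that runs the other way in the progesterone-exposed endometrial epithelium. Several members work mainly on other substrates: HSD17B4 in peroxisomal beta-oxidation, HSD17B8 in mitochondrial fatty acid synthesis, HSD17B10 in isoleucine degradation and mitochondrial tRNA processing, and HSD17B12 in the elongation of long-chain fatty acids.

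The start regions of the 3 members that were lower in T-HESC than in HEC-1A without treatment (HSD17B4, HSD17B8 and HSD17B11, described further on) are shown first, since all 3 were called in the same direction. RefSeq sequences were matched for HSD17B4, HSD17B8, HSD17B10 and HSD17B11 on GRCh38.p14. No entry was matched for HSD17B1, HSD17B2, HSD17B6, HSD17B12 and HSD17B14. Each line below gives, 5′ to 3′ on the strand of the gene, the part outside annotated exons of the 250 bases before the start. The capitals mark CCAAT boxes (CCAAT, written ATTGG where the match is on the opposite strand).
HSD17B4, chr5:119452247-119452464, plus strand: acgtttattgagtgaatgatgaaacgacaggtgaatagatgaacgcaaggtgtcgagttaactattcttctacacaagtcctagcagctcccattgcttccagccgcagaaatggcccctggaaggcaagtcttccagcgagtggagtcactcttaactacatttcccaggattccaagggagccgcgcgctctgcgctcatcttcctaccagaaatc
HSD17B8, chr6:33204440-33204654, plus strand: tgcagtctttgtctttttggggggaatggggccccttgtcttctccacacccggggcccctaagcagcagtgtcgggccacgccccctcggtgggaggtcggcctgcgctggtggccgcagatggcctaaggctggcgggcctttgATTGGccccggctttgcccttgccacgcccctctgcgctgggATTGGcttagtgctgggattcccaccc
HSD17B11, chr4:87391189-87391438, minus strand: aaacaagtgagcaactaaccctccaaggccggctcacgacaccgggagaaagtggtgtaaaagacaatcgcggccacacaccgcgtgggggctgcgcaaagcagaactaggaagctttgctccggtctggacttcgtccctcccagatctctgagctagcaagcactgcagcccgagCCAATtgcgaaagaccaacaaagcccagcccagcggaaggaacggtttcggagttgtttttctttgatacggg
The CCAAT box was searched on both strands in the 250 bases before each start, and 32% of 35116 promoters of that length held it. It was found at 69 and 27 bases before the start of HSD17B8 and at 73 bases before that of HSD17B11, and not in the window of HSD17B4. The window of HSD17B10, not printed here, held it at 194 and 31 bases, and that gene was not called between the untreated lines. The box was thus not particular to the members called lower in T-HESC. The GC box GGGCGG lay in the windows of HSD17B4, HSD17B8 and HSD17B10, and in 42.6% of all promoters, and in the first 2 of these genes outside the part printed here. The core TCACNCCAC of the sterol response element was present in 0.883% of promoters and the TATA box TATAAA in 10.7%, and neither in any of the 4 windows.

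Total counts were between 7168542 (HEC-1A AG-205 replicate 3) and 15178276 per library. A gene was counted as at the floor where none of a group's 3 libraries held more than 3 counts of it. The summed level of 8 epithelial markers was between 1383 and 2168 CPM in HEC-1A and between 223 and 393 CPM in T-HESC, where CDH1 was at the floor. Within HEC-1A the epithelial sum was 1383 to 1548 CPM with DMSO and 2095 to 2168 CPM with AG-205, and the part of this shift in the results below was not tested. The summed level of 8 stromal markers ran from 13.0 to 19.5 CPM in HEC-1A and from 13866 to 28595 CPM in T-HESC. The sums of 4 leukocyte and 4 endothelial markers did not exceed 1.5 CPM in any library. AG-205 replicate 1 stood apart among the T-HESC libraries, with a score of 85.4 on the first principal component against -33.8 to 1.97 for the other 5. The biological coefficient of variation was 10.1% for HEC-1A but 33.6% for T-HESC, so that effects in T-HESC carry wider intervals.

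Of the 9 genes, 7 passed the filter on low counts in HEC-1A and 8 in T-HESC. In HEC-1A, HSD17B12 and HSD17B14 were called higher with AG-205 and none was called lower. Among all 14122 genes tested in HEC-1A, 2.58% were called higher, and 11.6% had an adjusted p under 0.05 in either direction. In T-HESC, HSD17B14 was called higher and none lower, against 0.08% of 13753 genes called higher. The median log2 fold change of the members tested was 0.26 for HEC-1A and 0.17 for T-HESC, beside 0.01 and 0.02 over all genes tested. The AG-205 and DMSO libraries did not overlap for 4 of 7 members in HEC-1A, where this held for 31.5% of all genes, and for 2 of 8 in T-HESC, where it held for 11% of all genes. In these bulk libraries, fewer cells with a transcript and less of it per cell cannot be told apart.

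**Figure D1:**
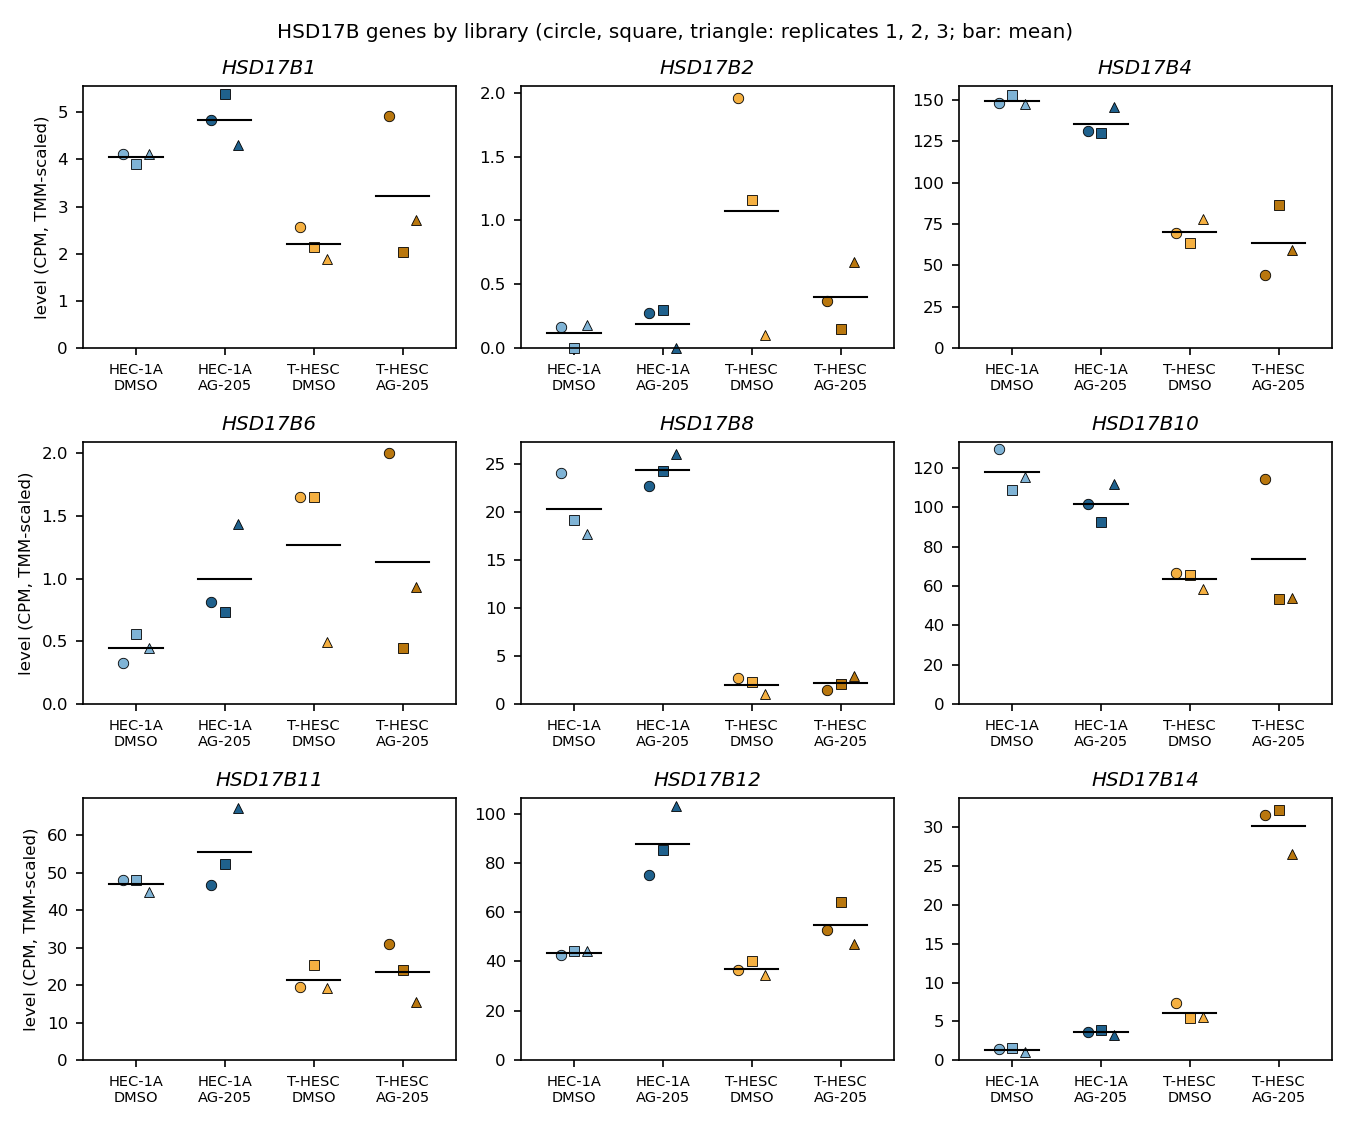
Level in CPM (linear axis from 0, 1 panel per gene) in each of the 12 libraries by group, with circles, squares and triangles for replicates 1, 2 and 3 and a bar for the mean. HSD17B14 was highest in the 3 T-HESC libraries with AG-205, at 26.6 to 32.2 CPM, and HSD17B2 and HSD17B6 stayed at or under 2.01 CPM in every library.

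HSD17B14 (ENSG00000087076, chr19:48813018-48836510, minus strand) encodes a short-chain dehydrogenase that oxidises estradiol to estrone in vitro. In HEC-1A its level was 1.40, 1.59 and 0.986 CPM with DMSO and 3.61, 3.91 and 3.23 CPM with AG-205. Each AG-205 library lay above every DMSO library, although the DMSO libraries held only 11 to 20 counts. The log2 fold change was 1.43 (SE 0.246, 2.70-fold, adjusted p = 0.00276, edgeR's quasi-likelihood test). Levels in T-HESC were 7.29, 5.46 and 5.49 CPM with DMSO and 31.7, 32.2 and 26.6 CPM with AG-205. The groups were far apart, with 55 to 97 counts against 314 to 429. The log2 fold change was 2.29 (SE 0.248, 4.91-fold, adjusted p = 0.0336, edgeR's quasi-likelihood test), and HSD17B14 ranked 6 by p among the genes tested in T-HESC. Without AG-205 replicate 1, the library that stood apart, the log2 fold change was 2.24 (adjusted p = 0.00969). With any of the other 5 libraries left out, the fold change stayed at 2.22 to 2.44 on the log2 scale while the adjusted p went to between 0.06 and 0.417, so that the call was lost in each case. Over all genes, those 5 fits called 0 to 5 higher and 0 lower, against 11 higher and 0 lower with all libraries. Of the 9 alternative settings listed further on, 8 kept the T-HESC call, among them no fold limit, which could not end it. A block on replicate number ended it, at 2.30 with an adjusted p of 0.051 (edgeR's quasi-likelihood test). No other annotated exon overlapped those of HSD17B14.

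HSD17B12 (ENSG00000149084, chr11:43680680-43856617, plus strand) encodes the 3-ketoacyl-CoA reductase of the microsomal elongation cycle, the step after the ELOVL condensing enzymes. In HEC-1A its level was 42.6, 44.1 and 44.2 CPM with DMSO and 75.3, 85.2 and 102.9 CPM with AG-205. The groups did not overlap, and the spread was wider with AG-205. The log2 fold change was 1.01 (SE 0.118, 95% interval 0.75 to 1.26, adjusted p = 1.55e-04, edgeR's quasi-likelihood test), which lies at the fold limit of the call. It was 0.87 without AG-205 replicate 3, the library with the lowest total counts, and 0.99 without DMSO replicate 1. The adjusted p were 1.43e-09 and 0.00313 (edgeR's quasi-likelihood test), so that the fold limit and not the p ended the call there. A block on replicate number gave 0.997 (adjusted p = 3.25e-04, edgeR's quasi-likelihood test), also short of the fold limit. In T-HESC its level was 36.5, 40.1 and 34.5 CPM with DMSO and 52.9, 64.3 and 46.9 CPM with AG-205. The groups were also apart, but the log2 fold change of 0.55 (SE 0.215, 95% interval 0.05 to 1.04) had an unadjusted p of 0.0345 and an adjusted p of 0.832 (edgeR's quasi-likelihood test). Exons of an antisense transcript covered 12.3% of the exon length of HSD17B12 and held at most 15 counts in any library, and those of a transcript on the same strand covered 6.35% and held at most 28, with HEC-1A medians of 27 with AG-205 and 19 with DMSO.

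**Figure D2:**
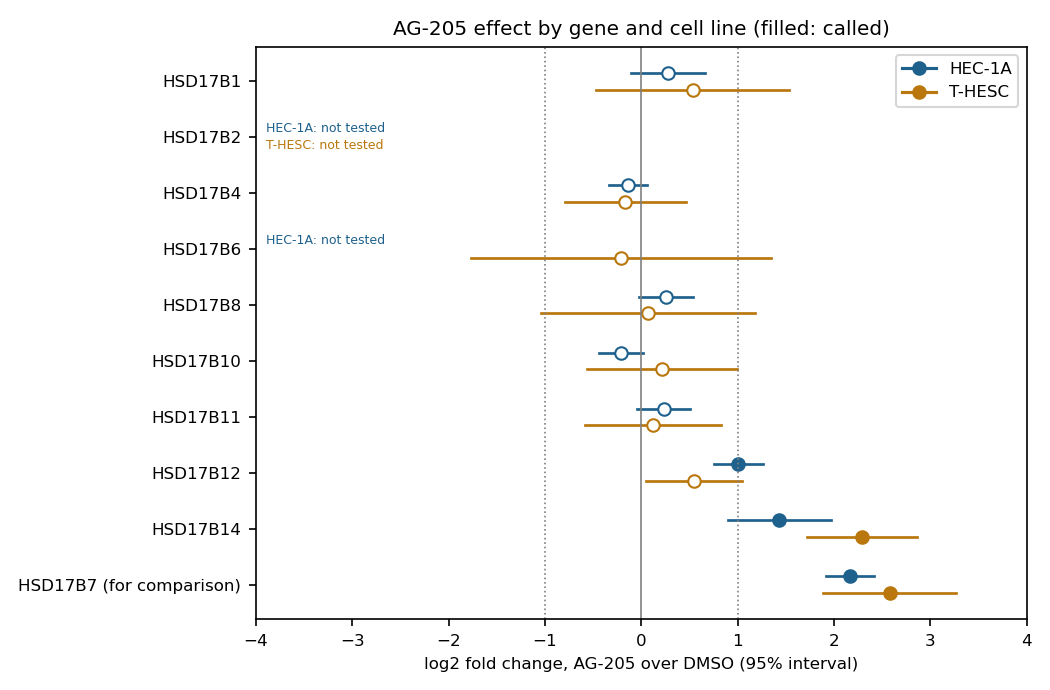
Log2 fold change of AG-205 over DMSO with its 95% interval (horizontal axis) for each gene in HEC-1A (blue) and T-HESC (brown), with filled points for called genes and dotted lines at -1 and 1. HSD17B14 was called in both lines, at 1.43 and 2.29, HSD17B12 in HEC-1A at 1.01, and HSD17B7 is drawn for comparison.

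Among the estrogen-converting members, HSD17B1 (ENSG00000108786, chr17:42552922-42555214, plus strand) was present at low levels. It measured 4.11, 3.90 and 4.12 CPM in HEC-1A with DMSO and 4.84, 5.38 and 4.30 CPM with AG-205. These groups were just apart, and the log2 fold change of 0.27 (SE 0.176, adjusted p = 0.36, edgeR's quasi-likelihood test) did not pass the test. In T-HESC it measured 2.56, 2.15 and 1.90 CPM with DMSO and 4.93, 2.03 and 2.71 CPM with AG-205. Only AG-205 replicate 1 was clearly above the DMSO libraries, and the log2 fold change went from 0.53 (SE 0.434) to 0.07 (SE 0.36) without that library. HSD17B1 shares 80.9% of its exon length with the antisense transcript HSD17B1-AS1, which held 0 to 8 counts, and has a pseudogene, HSD17B1P1, with 2 to 52 counts. Whether the counting used strand is not given in the sources used here, so its level is uncertain.

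HSD17B2 (ENSG00000086696, chr16:82035004-82098534, plus strand) was at or near 0. In HEC-1A it had 2, 0 and 2 counts with DMSO and 4, 4 and 0 counts with AG-205. In T-HESC it had 26, 14 and 1 counts with DMSO and 4, 2 and 8 counts with AG-205. DMSO was at the floor in HEC-1A, and the T-HESC DMSO libraries ran from 1 to 26 counts, so that no difference with AG-205 was detectable at this depth. The gene did not pass the filter in any comparison. With no filter, its log2 fold change in T-HESC was -1.48 (adjusted p = 0.842, edgeR's quasi-likelihood test).

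HSD17B6 (ENSG00000025423, chr12:56752161-56787790, plus strand), an oxidative 3-alpha-hydroxysteroid and retinol dehydrogenase, was likewise near 0. It had 4, 7 and 5 counts with DMSO and 12, 10 and 12 counts with AG-205 in HEC-1A, and 22, 20 and 5 counts with DMSO and 22, 6 and 11 counts with AG-205 in T-HESC. The HEC-1A groups did not overlap, but the gene failed the filter there, and its log2 fold change with no filter was 1.07 (SE 0.477, adjusted p = 0.206, edgeR's quasi-likelihood test). T-HESC groups overlapped, with a log2 fold change of -0.21 (SE 0.674, 95% interval -1.76 to 1.35). This value rested on single libraries: leaving out replicate 1 of the AG-205 group gave -0.93 (adjusted p = 0.722), leaving out its replicate 2 gave 0.16, and it was -1.39 with library quality weights (adjusted p = 0.2). Exons of PRIM1 on the opposite strand covered 5.81% of its exon length and held 19 to 207 counts.

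HSD17B4 (ENSG00000133835, chr5:119452465-119637199, plus strand) encodes the peroxisomal D-bifunctional protein, with hydratase and dehydrogenase activity. It measured 148, 153 and 148 CPM in HEC-1A with DMSO and 132, 130 and 146 CPM with AG-205. All AG-205 libraries were lower, but by little, and the log2 fold change of -0.14 (SE 0.089, adjusted p = 0.356, edgeR's quasi-likelihood test) did not pass. Without AG-205 replicate 3 it was -0.20 with an adjusted p of 0.0428, short of the fold limit. In T-HESC it measured 69.6, 63.3 and 77.9 CPM with DMSO and 44.4, 86.4 and 59.5 CPM with AG-205. The AG-205 libraries lay on both sides of the DMSO libraries, and the log2 fold change was -0.16 (SE 0.27) with all libraries and 0.03 without AG-205 replicate 1.

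HSD17B8 (ENSG00000204228, chr6:33204655-33206831, plus strand) forms, with CBR4, the ketoacyl reductase of mitochondrial fatty acid synthesis. It measured 24.1, 19.2 and 17.8 CPM in HEC-1A with DMSO and 22.8, 24.3 and 26.1 CPM with AG-205, and these ranges overlapped (log2 fold change 0.26, SE 0.13). In T-HESC it measured 2.71, 2.32 and 0.997 CPM with DMSO and 1.46, 2.1 and 2.88 CPM with AG-205, from 10 to 36 counts, and the groups overlapped. Its log2 fold change there was 0.07 (SE 0.482, 95% interval -1.04 to 1.18), an interval too wide to show whether the level changed. No other annotated exon overlapped its exons.

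HSD17B10 (ENSG00000072506, chrX:53431258-53434370, minus strand) is the mitochondrial member that also forms part of RNase P. It measured 129, 109 and 116 CPM in HEC-1A with DMSO and 102, 92.4 and 112 CPM with AG-205 (log2 fold change -0.21, SE 0.104, adjusted p = 0.222, edgeR's quasi-likelihood test). Without AG-205 replicate 3 it was -0.29 with an adjusted p of 0.00899, and with library quality weights -0.25 with an adjusted p of 0.0305, both short of the fold limit. T-HESC libraries measured 66.4, 65.4 and 58.6 CPM with DMSO and 114, 53.3 and 53.8 CPM with AG-205. AG-205 replicate 1 was far above the other 2, which both lay below all DMSO libraries. The log2 fold change there was 0.21 (SE 0.337) with all libraries and -0.27 (SE 0.168) without AG-205 replicate 1, and neither passed the test.

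HSD17B11 (ENSG00000198189, chr4:87336515-87391188, minus strand) encodes a dehydrogenase found on lipid droplets. It measured 48.0, 48.1 and 44.9 CPM in HEC-1A with DMSO and 46.8, 52.2 and 67.3 CPM with AG-205, where replicate 3 was the highest (log2 fold change 0.23, SE 0.128, adjusted p = 0.28, edgeR's quasi-likelihood test). Without that library the log2 fold change was 0.07 (adjusted p = 0.615). T-HESC libraries measured 19.4, 25.4 and 19.3 CPM with DMSO and 30.8, 24.0 and 15.6 CPM with AG-205. These libraries overlapped, and the log2 fold change was 0.13 (SE 0.306) with all libraries and -0.14 without AG-205 replicate 1.

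The difference of the AG-205 effect between the lines was called for none of the 8 members tested, against 0.174% of 16132 genes called in either direction (edgeR's quasi-likelihood test on all 12 libraries). In all, 1025 genes of that fit and 1 member, HSD17B14, had an unadjusted p under 0.05, and DESeq2 called no member. For HSD17B14 the effect in T-HESC minus that in HEC-1A was 0.88 (SE 0.317, 95% interval 0.19 to 1.57, unadjusted p = 0.0167, adjusted p = 0.612). For HSD17B12 it was -0.45 (SE 0.231, 95% interval -0.95 to 0.06, adjusted p = 0.851). The responses of HSD17B14 and HSD17B12 were thus not shown to differ between the lines.

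**Figure D3:**
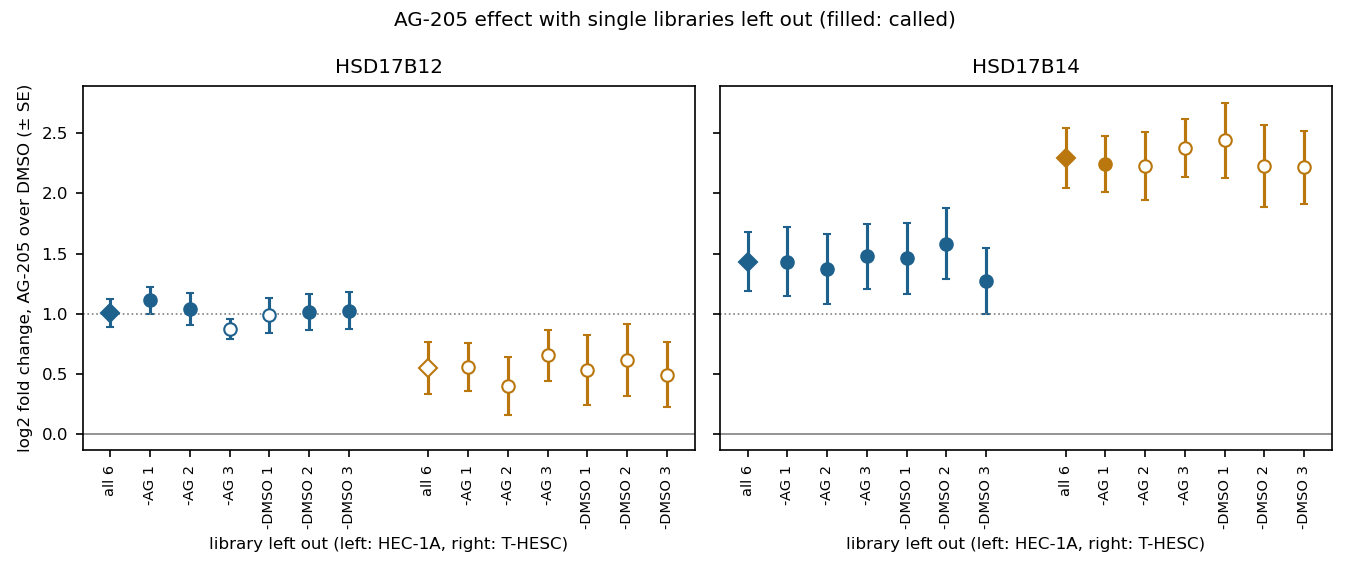
Log2 fold change of AG-205 over DMSO (vertical axis, ± SE) of HSD17B12 and HSD17B14 with all 6 libraries of a line (diamonds) and with each library left out (circles), filled where called, HEC-1A on the left and T-HESC on the right of each panel. HSD17B14 stayed between 2.22 and 2.44 in T-HESC, and HSD17B12 between 0.87 and 1.11 in HEC-1A.

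Without AG-205, 3 of the 7 members tested were called lower in T-HESC than in HEC-1A and 1 higher. Calls between the lines were common, at 22.3% lower and 22.3% higher among 14789 genes, and the DMSO libraries of the lines did not overlap for 76.6% of all genes and for all 7 members tested. HSD17B8 differed most, at 20.3 ± 3.31 CPM in HEC-1A and 2.01 ± 0.896 CPM in T-HESC (n = 3 each), and the test of T-HESC over HEC-1A gave a log2 value of -3.31 (SE 0.29, adjusted p = 1.13e-05, edgeR's quasi-likelihood test). HSD17B4 was at 149.6 ± 3.04 CPM against 70.3 ± 7.32 CPM (log2 fold change -1.10, SE 0.1, adjusted p = 1.42e-05). HSD17B11 was at 47.0 ± 1.83 CPM against 21.4 ± 3.51 CPM (log2 fold change -1.15, SE 0.132, adjusted p = 6.24e-05). HSD17B14 was the only one of the 7 that was higher in the stromal line, at 6.08 ± 1.05 CPM against 1.32 ± 0.309 CPM (log2 fold change 2.17, SE 0.259, adjusted p = 7.77e-05). HSD17B10 and HSD17B1 were lower in T-HESC by less than the fold limit, with log2 fold changes of -0.91 (adjusted p = 5.58e-05) and -0.88 (adjusted p = 0.00526), which passed that limit with upper-quartile scaling (-1.06 and -1.03). HSD17B12 missed the adjusted p, with a log2 fold change of -0.25 (95% interval -0.48 to -0.02, adjusted p = 0.052).

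**Figure D4:**
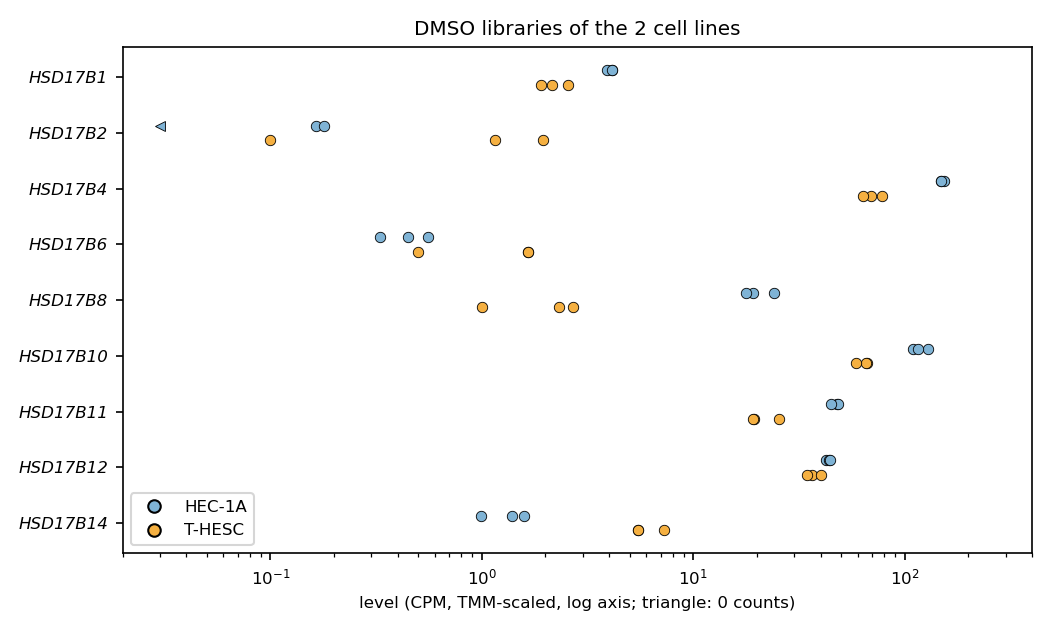
Level in CPM (log axis) of each gene in the DMSO libraries of HEC-1A (blue) and T-HESC (orange), 1 point per library, with a triangle at the left for 0 counts. HSD17B8 showed the widest gap, 17.8 to 24.1 CPM in HEC-1A against 0.997 to 2.71 CPM in T-HESC.

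Levels of different genes were compared per length, as RPKM (CPM per kilobase of the union of a gene's exons). In HEC-1A with DMSO, HSD17B10 was highest at 41.8 ± 3.69 RPKM, followed by HSD17B11 at 20.2 ± 0.785 and HSD17B8 at 17.6 ± 2.86, whose ranges overlapped. HSD17B4 at 6.01 ± 0.122 and HSD17B12 at 5.65 ± 0.114 RPKM came next, with HSD17B1, HSD17B14, HSD17B6 and HSD17B2 below. In T-HESC with DMSO, HSD17B10 was again highest at 22.5 ± 1.51 RPKM, and HSD17B14 reached 5.47 ± 0.945 RPKM. With AG-205, HSD17B14 rose in T-HESC to 27.1 ± 2.79 RPKM, a level whose range overlapped that of HSD17B10 at 26.1 ± 12.4 RPKM. Its share of the summed RPKM of the 9 genes was 11.3 ± 1.64% with DMSO and 35.9 ± 5.35% with AG-205, while in HEC-1A it was 1.26 ± 0.294% and 3.14 ± 0.555%. By the length of the MANE Select transcript, the main annotated isoform, the share in T-HESC was 4.38 ± 0.636% with DMSO and 17.0 ± 2.52% with AG-205, and in HEC-1A 0.503 ± 0.12% and 1.33 ± 0.234%. The place of HSD17B4 depended on the length used, since its 52 transcripts gave a union of 24901 bases against 2628 for the MANE Select transcript. By MANE Select length it was second to HSD17B10 in HEC-1A with DMSO, at 56.9 ± 1.16 against 123.6 ± 10.9 RPKM, and in T-HESC with AG-205 HSD17B10 was above HSD17B14, at 77.3 ± 36.7 against 28.7 ± 2.96 RPKM.

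Of the other family members, HSD17B7, the 3-ketosteroid reductase of cholesterol synthesis, was called higher with AG-205 in both lines, with log2 fold changes of 2.16 (SE 0.115) in HEC-1A and 2.58 (SE 0.299) in T-HESC. HSD17B3, the testicular testosterone-forming enzyme, had 0 counts in all 12 libraries, which allows up to 3 counts. Exons of a protein-coding gene on the same strand covered 66.4% of its exon length, and those of the antisense HSD17B3-AS1 covered 32.8%. How reads in such overlaps were counted is not given in the sources used here, so its 0 counts need not mean that the transcript was absent. HSD17B13, a liver lipid droplet protein, had 0 to 5 counts.

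Of 66 genes tested in HEC-1A in 6 lists of pathways around the members, 3 were called, all higher, beside 2.58% called higher over all genes. Of 12 genes of microsomal fatty acid elongation, the pathway of HSD17B12, 7 were tested and ELOVL6, which extends saturated C16 chains, was called higher, at 37.9 CPM with DMSO and 172 CPM with AG-205 (log2 fold change 2.19, SE 0.093, adjusted p = 2.34e-08, edgeR's quasi-likelihood test). Of 24 genes of local sex steroid metabolism, 14 were tested and CYP1B1, an estrogen 4-hydroxylase, was called higher, at 0.973 CPM with DMSO and 2.56 CPM with AG-205 (log2 fold change 1.36, adjusted p = 0.0304). Of 16 retinol dehydrogenases and related enzymes, 12 were tested and RDH11 was called higher (log2 fold change 1.21, adjusted p = 1.85e-05). The median log2 fold changes of these lists were 0.23, -0.05 and -0.12, beside 0.01 over all genes tested. None was called in peroxisomal beta-oxidation (15 of 17 tested), RNase P and isoleucine degradation (9 of 11) or mitochondrial fatty acid synthesis (9 of 9), where 2, 1 and 2 genes had an unadjusted p under 0.05 and DESeq2 called 0. The smallest p of these 3 lists belonged to ABCD3, a peroxisomal fatty acid transporter (log2 fold change -0.25), ACADSB, of isoleucine breakdown (-0.33), and MECR, the enoyl reductase of mitochondrial synthesis (-0.26).

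In T-HESC edgeR called 0 of the 64 genes tested in these 6 lists, of which 5 had an unadjusted p under 0.05, and DESeq2 called RDH11. List medians ran from -0.14 for peroxisomal beta-oxidation to 0.50 for sex steroid metabolism, beside 0.02 over all genes. RDH11 was at 1.40 on the log2 scale (SE 0.298, adjusted p = 0.302, edgeR's quasi-likelihood test) and ELOVL6 at 1.34 (SE 0.451, adjusted p = 0.67). ELOVL5, an elongase of polyunsaturated chains, was at 0.69 (SE 0.209, adjusted p = 0.558), with AG-205 libraries all above the DMSO libraries. Between the untreated lines, where 22.3% of all genes were called lower and 22.3% higher, 9 of the 14 sex steroid genes tested were called lower and 2 higher in T-HESC. This comparison keeps a gene that is expressed in either line. Of the 24 sex steroid genes listed, 14 passed the filter within HEC-1A and 8 within T-HESC. A gene kept only through HEC-1A is high there, so the filter partly set this tally and the list's median. Of 9 mitochondrial fatty acid synthesis genes, the pathway of HSD17B8, 2 were called lower and none higher. Of 16 peroxisomal genes tested, the pathway of HSD17B4, 1 was called lower and 4 higher. The medians of these 3 lists were -3.51, -0.44 and 0.15, beside -0.02 over all genes.

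The genes whose log2 CPM followed a member most closely over the 12 libraries were listed as a description, among 16131 genes. For HSD17B14 they were ZNF330 (Pearson's r = 0.977), VEGFB (r = 0.975), a growth factor of the VEGF family, and CARS2 (r = 0.972), the mitochondrial cysteine tRNA ligase. For HSD17B12 they were SC5D (r = 0.95), a sterol desaturase, ERG28 (r = 0.949), a scaffold of sterol synthesis, and HSD17B7 (r = 0.935). The 12 points fall into 4 groups and share the library scaling. The correlation does not show the size of a change. Group means ran from 1.32 to 30.2 CPM for HSD17B14. For the genes closest to it they ran from 24.3 to 57.5 CPM (ZNF330), 48.6 to 175 CPM (VEGFB) and 66.3 to 112 CPM (CARS2). HSD17B14 was ordered HEC-1A DMSO, HEC-1A AG-205, T-HESC DMSO and T-HESC AG-205, whereas HSD17B12 was higher in both AG-205 groups than in both DMSO groups, at 87.8 ± 14.0 and 54.7 ± 8.80 against 43.6 ± 0.880 and 37.0 ± 2.81 CPM.

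**Figure D5:**
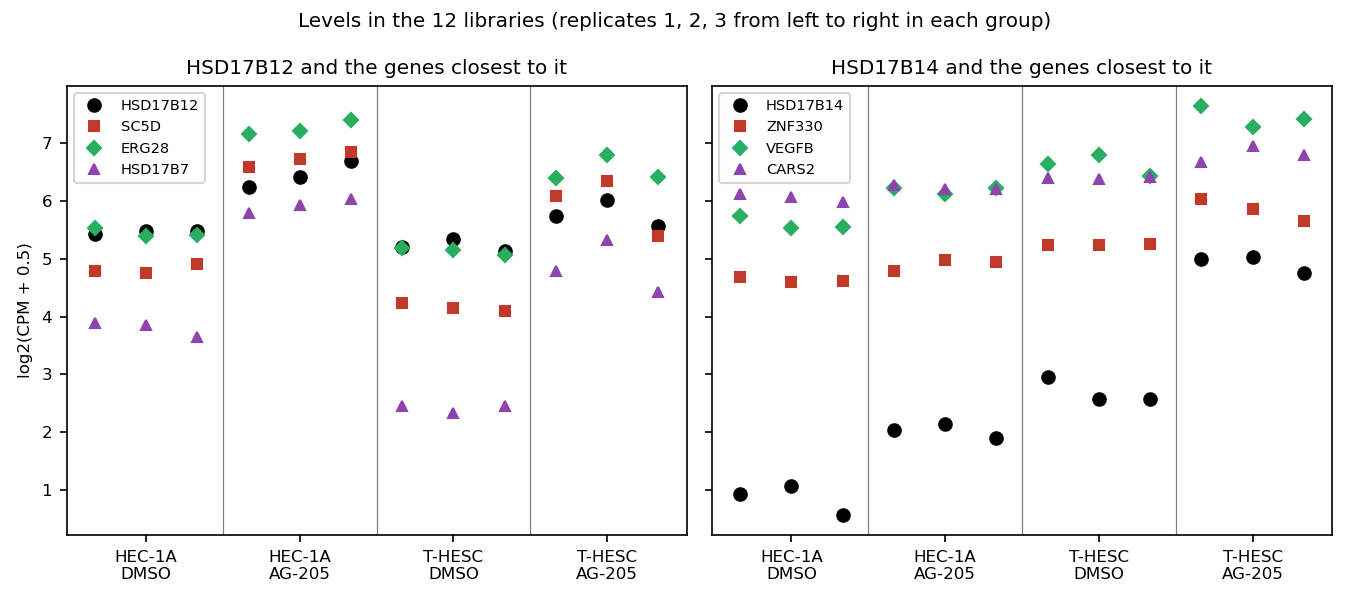
Level as log2(CPM + 0.5) (vertical axis) in the 12 libraries, 3 per group, of HSD17B12 with SC5D, ERG28 and HSD17B7 (left) and of HSD17B14 with ZNF330, VEGFB and CARS2 (right). The left genes were high in both AG-205 groups and the right genes were highest in T-HESC with AG-205, with r between 0.935 and 0.977.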

How the data were processed

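RNA was sequenced from 12 cultures after polyA selection. The authors deposited raw counts per gene, whole numbers without normalization. Per the study's methods and submitters' processing notes, reads were trimmed (Trimmomatic 0.38), aligned to GRCh38 (HISAT2 2.1.0) and counted (featureCounts, Subread 2.0.0). Strand and multi-mapping settings are not given in the sources used here, so overlapping genes and pseudogenes carry that uncertainty. Libraries were compared within groups, and none was a copy of another (chi-square per degree of freedom 1.79 to 207 over 12 pairs).

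Counts were analysed with edgeR 4.0.16 in R 4.3.3: filterByExpr, TMM, the quasi-likelihood test, and p-values adjusted by Benjamini-Hochberg over every tested gene (14122 in HEC-1A, 13753 in T-HESC, 16132 for the difference between lines, 14789 for the DMSO libraries of both lines). A call needed an adjusted p under 0.05 and an absolute log2 fold change above 1. GENCODE 44 gave positions and lengths, and matplotlib 3.10.9 the plots. The procedure was tested on simulated data. Alternatives were DESeq2 1.42.0, RLE and upper-quartile factors, no filter, a mean of at least 1 CPM, no fold limit, a replicate block, library quality weights (limma 3.58.1), 1 fit of all 12 libraries, and leaving out single libraries. MANE Select length was added after seeing the data. The members, gene lists and tests were chosen with earlier results of these data known. Named genes were all members, HSD17B3, HSD17B7 and HSD17B13, up to 4 called genes per list and line (otherwise up to 2 with the smallest p), and the 3 genes closest in pattern to each called member.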

Additional observations from a re-analysis of the deposited data

How the results depend on the processing

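HSD17B14 in HEC-1A was called under all 9 alternatives and with each of 6 libraries left out. The alternative with no fold limit is the main fit with that limit dropped. It could not end a call, and the tallies over 9 alternatives include it. HSD17B12 in HEC-1A was called under 6 of 9, and fell just below the fold limit with a mean of at least 1 CPM, with the replicate block and with library quality weights, leaving 1 member called in each (log2 fold changes 0.998, 0.997 and 0.906). With single libraries left out, the members called numbered 1 to 2 for HEC-1A and 0 to 1 for T-HESC. The replicate block left 0 called in T-HESC (HSD17B14 2.30, adjusted p = 0.051). Same-numbered libraries correlated at -0.07, 0.24 and 0.00 in HEC-1A and at 0.20, -0.49 and -0.03 in T-HESC, so the numbers were not taken to pair libraries. With 3 libraries per group these values cannot show that pairing is absent. No member was called for the difference between lines under any alternative, and HSD17B4, HSD17B8, HSD17B11 and HSD17B14 were called between the DMSO groups under all 9 alternatives and each library left out, with 4 to 6 members in all. HSD17B2 and HSD17B6 entered those calls, as higher in T-HESC, under 1 and 2 of the 9, on at most 26 counts, and HSD17B1 and HSD17B10, as lower, under 2 of the 9 each (upper-quartile factors and no fold limit).

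Library quality weights turned the T-HESC effects of HSD17B1 (-0.046), HSD17B4 (0.184), HSD17B8 (-0.086), HSD17B10 (-0.255) and HSD17B11 (-0.045), and the difference between lines of HSD17B1 (-0.30) and HSD17B4 (0.38). No filter turned the latter to 0.029. None of these was called in any setting, and the cause was not tested. With single libraries left out, T-HESC effects ran from -0.47 to 0.028 for HSD17B4, -0.93 to 0.16 for HSD17B6, -0.25 to 0.34 for HSD17B8, -0.27 to 0.39 for HSD17B10 and -0.14 to 0.35 for HSD17B11, and differences between lines from -0.17 to 0.50 for HSD17B1, -0.31 to 0.20 for HSD17B4, -0.48 to 0.093 for HSD17B8, -0.032 to 0.61 for HSD17B10 and -0.34 to 0.12 for HSD17B11. Counts over all genes moved more: in T-HESC 11 higher and 0 lower became 107 and 21 with DESeq2, 145 and 36 with no filter, 230 and 103 with quality weights, 133 and 27 in 1 fit of all libraries, and 0 to 69 higher with single libraries left out. In HEC-1A 364 and 29 became 1038 and 605 with no fold limit and 135 and 6 in the fit of all libraries. The 7 higher and 21 lower for the difference became 29 and 61 with DESeq2, 54 and 87 with no filter, 153 and 227 with quality weights, and 0 with the block. In all, 28 of 36 gene and group means were at or above 1 RPKM by each length used. Depth limits HSD17B2 and HSD17B6.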
